A study of Homo sapiens with 4 samples.

Results

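Genes of the tricarboxylic acid cycle and of pyruvate entry into it were examined in C14orf159 knockout cells. The list of 33 genes covers the pyruvate dehydrogenase complex and its phosphatases, the enzymes that carboxylate or decarboxylate pyruvate, malate and oxaloacetate, and the enzymes of the cycle. Its members were found by gene symbol among 26255 genes, and all 33 were present in the files. A total of 32 reached an FPKM (fragments per kilobase of transcript per M (mega) fragments) of at least 1 in at least 2 libraries and were tested, and ME3 was not. RNA had been sequenced from HCT116, an established human colorectal cancer line, in 2 libraries of C14orf159 knockout cells (KO 1 and KO 2) and 2 libraries of control cells (EV control 1 and EV control 2). The labels call the controls transfected with an empty vector, whereas the file headers name them AAVS1, a safe-harbour locus used as a neutral target, and name the knockout columns sgDGLUCY. C14orf159, now named DGLUCY, encodes a protein of the mitochondrial matrix. The study asked why this gene restrains migration, invasion and spheroid growth. Clones, passages and the position of the edit are not stated in the labels, so replicate spread, on which the p-values rest, may in part be technical.

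The cycle runs in the mitochondrial matrix. Pyruvate enters through a carrier and is turned into acetyl-CoA by the pyruvate dehydrogenase complex, which kinases switch off and phosphatases switch on. Citrate synthase joins acetyl-CoA to oxaloacetate, and the following dehydrogenases pass electrons to the respiratory chain. Pyruvate carboxylase refills oxaloacetate, and malic enzymes and the phosphoenolpyruvate carboxykinases draw carbon out. Several steps have a cytosolic and a mitochondrial enzyme encoded by separate genes, and colorectal cancer cells use the cycle for biosynthesis as well as for respiration.

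C14orf159 had 2.52 FPKM in KO 1 and 10.8 FPKM in KO 2, against 16.2 and 16.4 FPKM in the EV control libraries. KO 1 thus kept 15.5% and KO 2 66.2% of the EV control mean, and the group difference did not pass the test described next (log2 difference -1.42, SE 0.57, limma-trend adjusted p = 0.314). Whether the protein was lost was not measured here, so the knockout label of both KO libraries rests on the submitters' account. The 20 expressed genes nearest to C14orf159 had a median log2 difference of -0.59 in KO 1 and 0.01 in KO 2. Genes around C14orf159 were thus also lower in KO 1, and the cause was not tested. Rough depths estimated from low values were 12.5 and 12.9 M fragments (mega) in KO 1 and KO 2 and 12.99 and 13.4 M in EV control 1 and 2. Of 8 markers of a colon epithelial line, EPCAM, KRT8, KRT18, KRT19 and CDH1 were high in all 4 libraries, while VIL1, LGALS4 and CEACAM5 were at or near 0. Summed markers of fibroblasts, leukocytes, endothelium and red cells each came to at most 1.42 FPKM in any library. For bulk RNA, fewer cells of a type and less RNA per cell cannot be told apart.

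No member passed the test of KO against EV control (limma-trend on log2(FPKM + 1), Benjamini-Hochberg adjusted p under 0.05 over 12701 genes). Among all tested genes, 0.0551% were called higher and 0.0551% lower. By unadjusted p under 0.05, 2 members were higher (IDH2 and PDHB) and 2 lower (PDPR and SUCLA2), each 6.25% of the tested members. Among all tested genes these shares were 9.23% higher and 7.22% lower, so the members' counts lay near the background. Without EV control 1, or without EV control 2, both of the members' counts were 0. The share of all tested genes was not counted for those fits, so these counts are not set against a background. The median log2 difference over the tested members was -0.05, against 0.003 over all tested genes. It was -0.07 in KO 1 and -0.01 in KO 2.

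**Figure D1:**
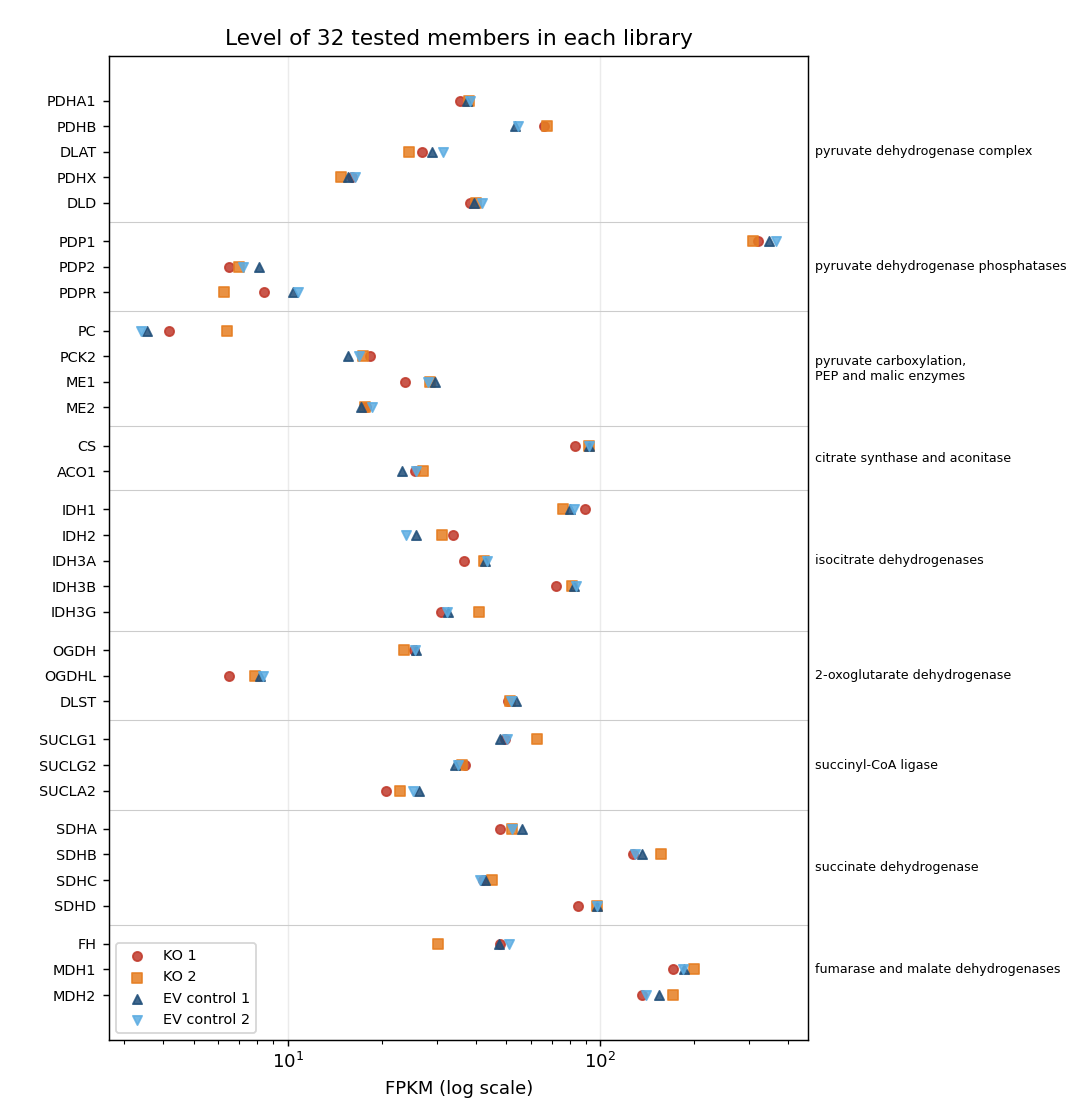
FPKM (log axis) of the 32 tested members, by enzymatic step from pyruvate entry at the top to malate at the bottom, with 1 symbol per library. PDP1 lies highest, between 308 and 367 FPKM, and PC lowest, between 3.39 and 6.38 FPKM, and most members have their 4 symbols close together.

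The spread between replicates was compared next. The KO replicates lay further apart than the EV replicates for 24 of the 32 members. The median absolute distance was 0.14 between KO replicates and 0.06 between EV control replicates on the log2(FPKM + 1) scale. Over all tested genes these distances were 0.17 and 0.07.

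For 5 members, both KO values exceeded both EV control values (15.6%, against 26.5% of all tested genes), namely for PDHB, PC, PCK2, IDH2 and SUCLG2. Both lay below the controls for 12 members (37.5%, against 25.6% of all tested genes). These were DLAT, PDP1, PDP2, PDPR, IDH3A, IDH3B, OGDH, OGDHL, DLST, SUCLA2, SDHA and SDHD. With median-of-ratios scaling the counts were 8 above (27.3% of all tested genes) and 13 below (24.5%).

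Each KO library was also set against the EV controls alone, which has no replicate check on the KO side. A difference of at least 0.3 on the log2(FPKM + 1) scale was found in KO 1 for 1 member on the higher side (IDH2; 12.2% of all tested genes) and for 2 on the lower side (PDPR and SUCLA2; 10.1%). In KO 2 it was found for 5 members on the higher side (PDHB, PC, IDH2, IDH3G and SUCLG1; 14.8% of all tested genes) and for 2 on the lower side (PDPR and FH; 11.4%). In limma-trend fits without the other KO library, where the lone library is assumed to vary like the EV controls, KO 1 gave 2 members higher (IDH2 and PDHB, background 6.29%) and SUCLA2 lower (background 6.94%). KO 2 gave 5 higher (PDHB, PC, IDH2, IDH3G and SUCLG1, background 10.9%) and 2 lower (PDPR and FH, background 6.62%). The KO replicates lay further apart than that assumption takes them to be, so these calls may be too many.

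**Figure D2:**
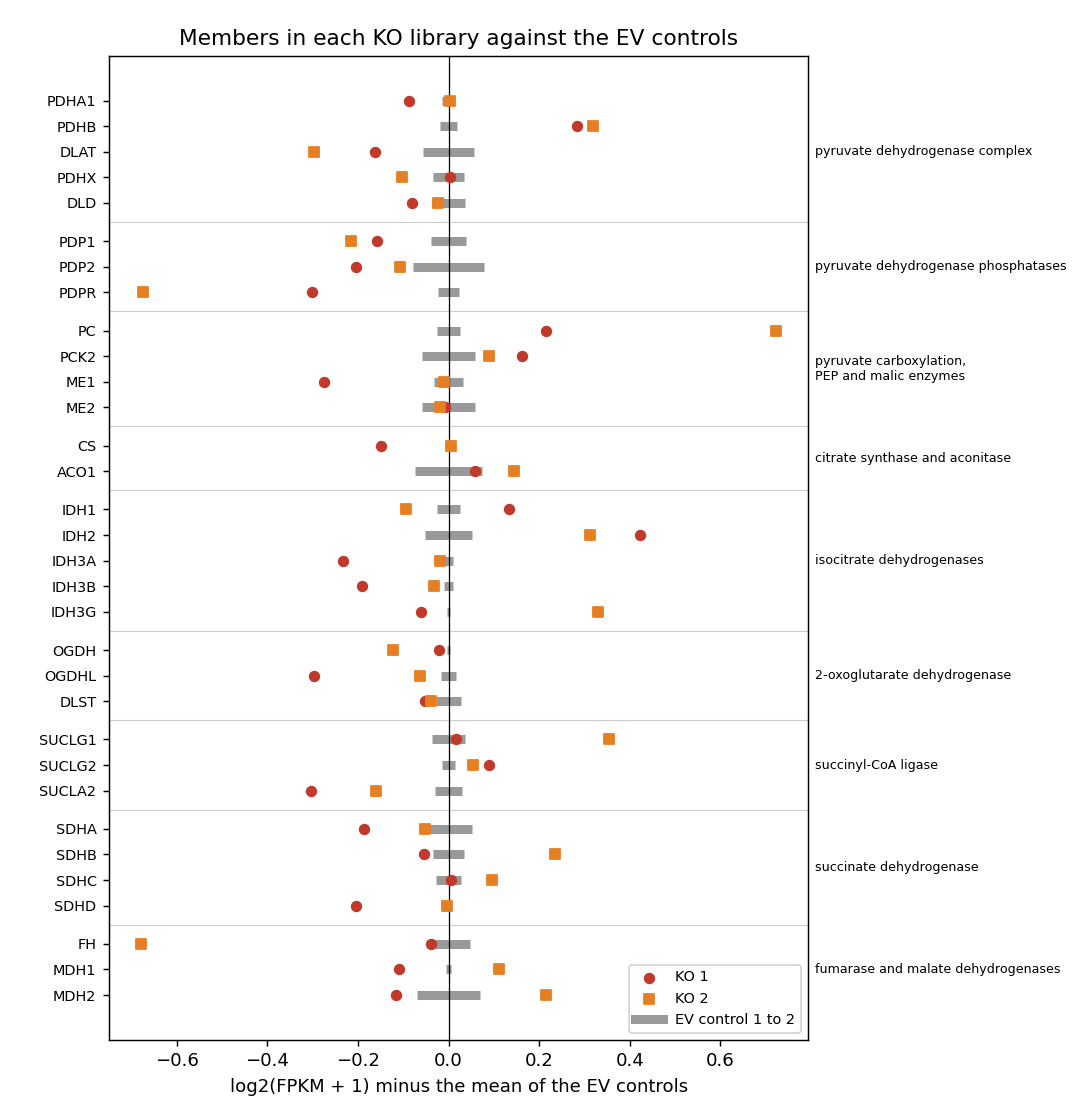
Difference of KO 1 (circles) and KO 2 (squares) from the mean of the EV controls on the log2(FPKM + 1) scale, by step. Grey bars span the EV control replicates. PDHB and IDH2 stand to the right in both KO libraries, PDPR and SUCLA2 to the left in both, and FH is low in KO 2 alone.

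Promoter sequence is shown for 4 members: PDHB, which was higher in both KO libraries, DLAT and SUCLA2, which were lower in both, and FH, which was low in KO 2 alone. They were chosen with their values known, and the choice leaves out IDH2, which had the smallest p-value of the members, and PDPR. Each window holds the 250 bases before the RefSeq start (build GRCh38.p14). The PDHB window is chr3:58433833-58434082 on the minus strand, that of DLAT chr11:112025158-112025407 on the plus strand, that of SUCLA2 chr13:48001274-48001523 on the minus strand and that of FH chr1:241519756-241520005 on the minus strand. Capitals mark ACGTG or GCGTG on either strand, the core of the hypoxia response element, which was chosen with earlier results on hypoxia-responsive genes in these libraries known.
PDHB: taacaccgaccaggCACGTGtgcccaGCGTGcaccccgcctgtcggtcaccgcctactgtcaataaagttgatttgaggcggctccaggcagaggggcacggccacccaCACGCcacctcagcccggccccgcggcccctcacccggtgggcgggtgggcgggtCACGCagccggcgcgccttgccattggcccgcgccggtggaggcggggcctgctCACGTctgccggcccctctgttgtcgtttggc
DLAT: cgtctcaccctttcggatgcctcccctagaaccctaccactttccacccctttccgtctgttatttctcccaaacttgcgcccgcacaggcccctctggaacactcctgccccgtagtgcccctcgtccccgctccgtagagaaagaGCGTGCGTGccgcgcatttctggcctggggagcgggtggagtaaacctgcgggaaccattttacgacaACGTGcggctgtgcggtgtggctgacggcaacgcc
SUCLA2: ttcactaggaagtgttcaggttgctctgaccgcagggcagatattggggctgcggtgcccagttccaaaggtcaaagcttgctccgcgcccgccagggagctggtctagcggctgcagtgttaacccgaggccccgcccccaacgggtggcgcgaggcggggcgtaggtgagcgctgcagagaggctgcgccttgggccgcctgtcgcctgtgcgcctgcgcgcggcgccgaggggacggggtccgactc
FH: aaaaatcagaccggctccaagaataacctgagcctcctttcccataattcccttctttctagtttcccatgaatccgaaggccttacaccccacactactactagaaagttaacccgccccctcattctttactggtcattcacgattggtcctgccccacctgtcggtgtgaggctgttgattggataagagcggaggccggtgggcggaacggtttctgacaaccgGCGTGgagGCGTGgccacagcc
PDHB held 6 matches, of which a pair overlaps in the palindrome CACGTG, DLAT held 3, FH held 2 and SUCLA2 none. IDH2, not shown, held 1 match and PDPR none. Of the 30 members with a promoter in the table, 20 held at least 1 match (66.7%), against 43.1% of 27305 promoters. The NRF1 motif, GCGCA followed by any base and GCGC, stood in 16.7% of members, SUCLA2 among them, and in 5.53% of all promoters. The ETS motif CTTCCGG stood in 23.3% of members and 8.82% of all promoters. NRF1 and the ETS factor GABP are known regulators of nuclear genes for mitochondrial proteins. SDHC, OGDH and PDP1 had no entry. A match is a description of the letters and no evidence of binding. The 27305 promoters were not chosen by expression or matched to the members for base content. The 4 windows shown held between 53.6% and 71.6% G and C. The higher shares among members are therefore not read as a trait of the pathway. Of the members at an unadjusted p under 0.05 in limma-trend, PDHB and IDH2 were higher and held 6 and 1 matches. PDPR and SUCLA2 were lower and held none. DLAT, which was lower in both KO libraries but missed that cut, held 3. Whether matches go with direction was not tested.

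The pyruvate dehydrogenase complex was examined first. PDHB, the beta subunit of its first enzyme, had 66.0 and 67.7 FPKM in KO 1 and KO 2, against 53.3 and 54.8 FPKM in EV control 1 and 2. The groups did not overlap, and the KO mean was 1.24 times the EV control mean. The log2 difference was 0.30 (SE 0.07, limma-trend adjusted p = 0.209). PDHA1, the alpha subunit with which PDHB forms the enzyme and the target of the kinases, had 35.7 and 38.0 FPKM in the KO libraries, against 37.6 and 38.3 FPKM in the EV controls. The ratio of PDHB to PDHA1 was therefore 1.85 and 1.78 in KO 1 and KO 2, against 1.42 and 1.43 in EV control 1 and 2.

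DLAT, the acetyltransferase core of the complex, had 26.95 and 24.4 FPKM in KO 1 and KO 2, against 29.1 and 31.5 FPKM in the EV controls. Its log2 difference was -0.23 (SE 0.09, adjusted p = 0.317), with groups that did not overlap. PDHX, which tethers DLD to the core, had 16.1 and 14.9 FPKM, against 15.6 and 16.4 FPKM in the EV controls. RefSeq places APIP within the same stretch, and use of strand in counting is not stated; APIP had 34.1 and 36.4 FPKM, against 34.8 and 34.2 FPKM in the EV controls. DLD, the dihydrolipoamide dehydrogenase, which the 2-oxoglutarate dehydrogenase complex shares, had 38.4 and 40.0 FPKM, against 39.6 and 41.8 FPKM in the EV controls. Within the complex, PDHB was thus on the higher side and DLAT on the lower side in both KO libraries, while the groups overlapped for PDHA1, PDHX and DLD.

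The phosphatase genes PDP1, PDP2 and PDPR, whose products reactivate the complex, each had both KO values below both EV control values, as 25.6% of all tested genes did. PDP1, the catalytic subunit of the calcium-stimulated phosphatase, was the highest of all 33 members, with 320 and 308 FPKM in KO 1 and KO 2, against 348 and 367 FPKM in the EV controls. Its log2 difference was -0.19 (SE 0.09, adjusted p = 0.381). PDP2, another catalytic subunit, had 6.50 and 7.02 FPKM, against 8.11 and 7.18 FPKM in the EV controls, with a log2 difference of -0.16 (SE 0.10, adjusted p = 0.493; -0.08 without EV control 1). PDP1 made up between 97.7% and 98.1% of their summed FPKM in the 4 libraries.

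PDPR, the regulatory subunit, had 8.42 FPKM in KO 1 and 6.26 FPKM in KO 2, against 10.4 and 10.8 FPKM in the EV controls. This was 79.4% and 59.1% of the EV control mean, and the groups did not overlap. The log2 difference was -0.49 (SE 0.15, adjusted p = 0.245; -0.30 without KO 2). PDPR shares sequence with the transcribed pseudogene PDPR2P, listed as LOC283922, so its level is uncertain. LOC283922 had 1.90 and 1.14 FPKM, against 2.50 and 2.82 FPKM in the EV controls, the same order of libraries as PDPR. Reads exchanged between this pair were not tested.

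Pyruvate carboxylase, PC, which makes oxaloacetate from pyruvate, was the lowest of the tested members. It had 4.19 FPKM in KO 1 and 6.38 FPKM in KO 2, against 3.55 and 3.39 FPKM in the EV controls. KO 2 stood at 184% and KO 1 at 121% of the EV control mean. The log2 difference was 0.47 (SE 0.19, adjusted p = 0.318; 0.21 without KO 2 and 0.72 without KO 1). LRFN4, which lies within the stretch of PC, had 13.1 and 14.9 FPKM, against 15.1 and 14.96 FPKM in the EV controls, and was not higher in either KO library. PCK2, the mitochondrial phosphoenolpyruvate carboxykinase, had 18.4 and 17.4 FPKM, against 15.6 and 16.99 FPKM.

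Among the malic enzymes, which turn malate into pyruvate, cytosolic ME1 had 23.7 FPKM in KO 1 and 28.7 FPKM in KO 2, against 29.6 and 28.2 FPKM in the EV controls. Mitochondrial ME2 had 17.8 and 17.6 FPKM, against 17.1 and 18.7 FPKM. ME3 was listed at 0.0387 FPKM in KO 1 and 0.0365 FPKM in EV control 1, and at 0 in KO 2 and EV control 2. ME1 held 57.1% and 61.9% of the summed malic enzyme FPKM in KO 1 and KO 2, against 63.2% and 60.2% in the EV controls. The malic enzyme balance therefore overlapped between the groups.

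At entry into the cycle, CS, the citrate synthase gene, had 82.9 and 92.3 FPKM in KO 1 and KO 2, against 91.9 and 92.0 FPKM in the EV controls. KO 1 was the lowest library, and KO 2 lay level with the controls. ACO1, the cytosolic aconitase that doubles as iron regulatory protein, had 25.5 and 27.2 FPKM, against 23.2 and 25.8 FPKM.

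IDH2, the mitochondrial NADP-dependent isocitrate dehydrogenase, had 33.7 and 31.1 FPKM in KO 1 and KO 2, against 25.9 and 23.97 FPKM in EV control 1 and 2. The groups did not overlap, and the KO mean was 1.30 times the EV control mean. The log2 difference was 0.37 (SE 0.09, adjusted p = 0.208). IDH1, its cytosolic and peroxisomal counterpart, had 89.4 and 76.2 FPKM, against 79.9 and 82.8 FPKM, so that KO 1 was the highest and KO 2 the lowest library. The share of IDH2 in the summed FPKM of IDH1 and IDH2 was 27.4% and 29% in KO 1 and KO 2, against 24.4% and 22.4% in the EV controls.

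The NAD-dependent enzyme of the cycle is built from IDH3A, IDH3B and IDH3G, of which IDH3A is the catalytic subunit. IDH3A had 36.6 and 42.6 FPKM, against 42.9 and 43.6 FPKM in the EV controls. IDH3B had 72.6 and 81.2 FPKM, against 82.4 and 83.6 FPKM. Both subunits were lower in KO 1 than in the other libraries, and their ratio stayed between 1.90 and 1.98. IDH3G had 31.1 FPKM in KO 1 and 41.0 FPKM in KO 2, against 32.5 and 32.4 FPKM in the EV controls, high in KO 2 alone. SSR4, which overlaps IDH3G, had 162 and 172 FPKM, against 167 and 149 FPKM.

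Of the genes of the 2-oxoglutarate dehydrogenase complex, OGDH, OGDHL and DLST each had both KO values below both EV control values, as 25.6% of all tested genes did, while the groups overlapped for the shared DLD. None of these genes passed the test. OGDH, the first enzyme, had 25.3 and 23.6 FPKM, against 25.8 and 25.6 FPKM in the EV controls. OGDHL, a related first enzyme, had 6.52 FPKM in KO 1 and 7.84 FPKM in KO 2, against 8.13 and 8.34 FPKM, with a log2 difference of -0.18 (SE 0.11, adjusted p = 0.473; -0.06 without KO 1 and -0.30 without KO 2). DLST, the succinyltransferase core, had 50.9 and 51.4 FPKM, against 53.9 and 51.8 FPKM. DLST lies on chromosome 14, as does the targeted gene. The 20 expressed genes nearest to C14orf159 in chromosome order had a median log2 difference of -0.59 in KO 1 and 0.01 in KO 2, whereas those nearest to DLST had 0.15 and 0.02. PCK2, also on chromosome 14, had neighbours at -0.08 and 0.04.

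Succinyl-CoA ligase pairs the alpha subunit SUCLG1 with either SUCLA2, which makes ATP, or SUCLG2, which makes GTP. SUCLA2 had 20.7 and 22.9 FPKM in KO 1 and KO 2, against 26.3 and 25.2 FPKM in the EV controls. The groups did not overlap, and the log2 difference was -0.23 (SE 0.09, adjusted p = 0.304). SUCLG2 had 37.1 and 36.2 FPKM, against 34.4 and 35.2 FPKM. The share of SUCLA2 in the summed FPKM of the beta subunits was 35.8% and 38.8% in KO 1 and KO 2, against 43.3% and 41.7% in the EV controls. SUCLG1 had 49.6 FPKM in KO 1 and 63.0 FPKM in KO 2, against 47.8 and 50.3 FPKM, high in KO 2 alone. The 20 genes nearest to SUCLG1 had a median of 0.25 in KO 2 and -0.06 in KO 1.

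**Figure D3:**
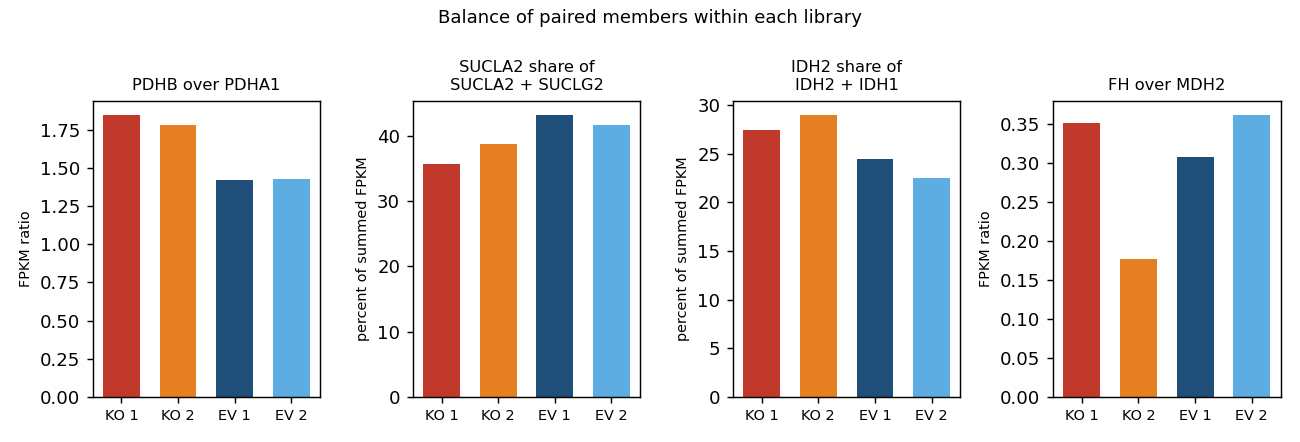
Balance of paired members in each library: the FPKM ratio of PDHB to PDHA1, the percent share of SUCLA2 and of IDH2 within their pairs, and the FPKM ratio of FH to MDH2. The first 3 panels separate the KO libraries from the EV controls, and in the last KO 2 stands apart at 0.177, against 0.307 to 0.362 in the other libraries. PDHB, SUCLA2 and IDH2 had groups that did not overlap on their own, so the separation of these panels follows from the same values. How often other gene pairs separate was not counted. FH and MDH2 act at successive steps, and MDH2 had its highest value in KO 2, so the last ratio draws on both genes.

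The subunit genes of succinate dehydrogenase, which is also complex II of the respiratory chain, had a median log2 difference of -0.12 in KO 1 and 0.05 in KO 2. For SDHA and SDHD both KO values lay below both EV control values, as for 25.6% of all tested genes. SDHA, the flavoprotein subunit, had 47.7 and 52.4 FPKM, against 56.4 and 52.5 FPKM in the EV controls. The pseudogenes SDHAP1, SDHAP2 and SDHAP3 resemble SDHA and had between 1.90 and 6.54 FPKM in the 4 libraries, so a share of reads may be placed among them. SDHB, the iron-sulphur subunit, had 128 and 156 FPKM, against 136 and 129 FPKM. The membrane anchors were SDHC, with 42.3 and 45.1 FPKM against 42.97 and 41.3 FPKM in the EV controls, and SDHD. SDHD had 84.96 and 97.7 FPKM, against 97.9 and 98.1 FPKM. The log2 differences of the subunits lay between -0.12 and 0.09, and the lowest adjusted p was 0.543.

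Fumarase, encoded by FH, gave the widest split between the KO libraries. It had 47.9 FPKM in KO 1 and 30.4 FPKM in KO 2, against 47.6 and 51.0 FPKM in the EV controls. KO 1 lay among the controls at 97.2% of their mean, and KO 2 lay far below at 61.7%. The log2 difference of the groups was -0.36 (SE 0.22, adjusted p = 0.465). It was -0.04 for KO 1 and -0.68 for KO 2 against the EV controls. FH hydrates fumarate to malate and is a tumour suppressor gene in hereditary leiomyomatosis and renal cell cancer. The 20 expressed genes nearest to it on chromosome 1 had medians of 0.01 in KO 1 and -0.07 in KO 2. CEP170, the second gene after FH in that order, was at -0.70 in KO 2 and 0.01 in KO 1, a gene singled out after its values were seen. EXO1, which lies between them, was at -0.06 in KO 2. From HEATR1 before FH to HNRNPU-AS1 after it, every gene lay below 0 in KO 2, with MTR at -0.36 and ADSS at -0.26. In KO 1 the same genes ranged from -0.36 to 0.16. Further before FH, TBCE and GPR137B were at 0.38 and 0.56 in KO 2. The stretch from HEATR1 to HNRNPU-AS1 was singled out after its values were seen, and its cause was not tested.

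**Figure D4:**
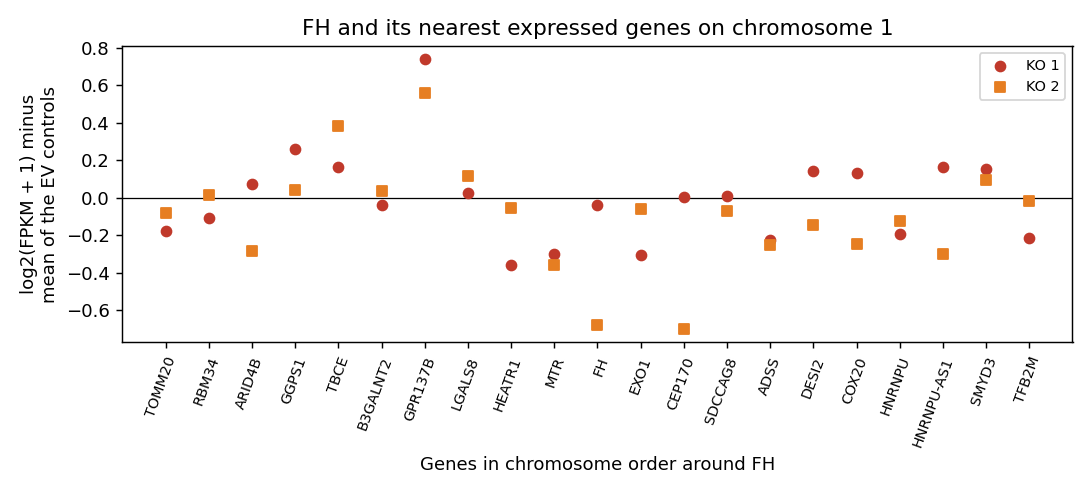
Difference of KO 1 (circles) and KO 2 (squares) from the mean of the EV controls on the log2(FPKM + 1) scale for FH and the 10 nearest expressed genes on each side, in RefSeq order. FH at -0.68 and CEP170 at -0.70 are low in KO 2 alone, and the neighbours of FH have a median of -0.07 in that library. Genes from HEATR1 to HNRNPU-AS1 all lie below 0 in that library.

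The malate dehydrogenases close the cycle in mitochondria and run the malate shuttle across the membrane. Cytosolic MDH1 had 172 and 200.1 FPKM in KO 1 and KO 2, against 186 and 184 FPKM in the EV controls. Mitochondrial MDH2 had 136 and 172 FPKM, against 155 and 141 FPKM. Both had their lowest value in KO 1 and their highest in KO 2. In all tested genes with a length, split into 3 equal classes by transcript length, KO 2 had medians of 0.07 for short, 0.04 for middle and -0.06 for long transcripts. KO 1 had medians of -0.002, 0.0005 and -0.01 in the same classes. The tested members of these classes (10, 15 and 7 genes) had medians of -0.0001, -0.02 and -0.02 in KO 2. In KO 1 they had medians of -0.10, -0.06 and -0.02. The members' short class was thus the highest in KO 2 and the lowest in KO 1. Whether length shaped the members' values was not tested. With each library corrected for transcript length and GC content, a choice made after seeing the data, 3 members instead of 5 were at least 0.3 higher in KO 2. The share of all tested genes was not counted under this correction, so the change is not read as one of the members.

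Other genes of the pathway were taken as a list of 37, of which 34 were tested. No gene of it passed in limma-trend, and an unadjusted p under 0.05 was found for 4 on the higher side (GOT1, SDHAF4, MPC2 and PDK3) and 2 on the lower side (SLC25A13 and SLC25A10). That is 11.8% and 5.88% of the tested genes, against 9.23% and 7.22% of all tested genes. The list's median log2 difference was 0.05. In the fits of a lone KO library, KO 1 gave 2 higher (GOT1 and SDHAF4, background 6.29%) and 2 lower (ACLY and SLC25A10, background 6.94%). KO 2 gave 7 higher (GOT1, SDHAF4, MPC2, PDK3, SDHAF1, LDHA and CLYBL, background 10.9%) and 1 lower (SLC25A13, background 6.62%). As with the members, these calls may be too many, since the fits take the spread of the EV controls alone.

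On the side of pyruvate supply, MPC2, a subunit of the mitochondrial pyruvate carrier, had 17.9 and 19.7 FPKM in KO 1 and KO 2, against 13.9 and 14.7 FPKM in the EV controls. Its log2 difference was 0.37 (SE 0.09, adjusted p = 0.208), and the groups did not overlap. MPC1, the partner subunit, had 21.6 and 15.8 FPKM, against 20.3 and 17.6 FPKM, and spanned the controls (log2 difference -0.03, SE 0.17, adjusted p = 0.936; 0.18 without KO 2 and 0.07 without EV control 1). Among the kinases that inactivate pyruvate dehydrogenase, PDK3 had 2.998 and 4.04 FPKM, against 2.15 and 2.22 FPKM in the EV controls. Its log2 difference was 0.50 (SE 0.15, adjusted p = 0.246; 0.33 without KO 2). PDK1, a known hypoxia-responsive kinase gene, had 4.26 and 4.01 FPKM, against 3.52 and 3.16 FPKM (0.24, SE 0.11, adjusted p = 0.345). PDK2, the kinase gene with the highest FPKM, had 21.5 and 21.5 FPKM, against 22.9 and 22.2 FPKM (-0.06, SE 0.07, adjusted p = 0.692). PDK4 had 1.44 and 1.44 FPKM, against 1.26 and 1.42 FPKM (0.06, SE 0.13, adjusted p = 0.832).

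Of the remaining genes named by the smallest p-values, GOT1, the cytosolic aspartate aminotransferase that exchanges oxaloacetate with aspartate, had 70.4 and 73.8 FPKM in KO 1 and KO 2, against 48.6 and 48.1 FPKM in the EV controls. Its log2 difference was 0.57 (SE 0.08, adjusted p = 0.134). SDHAF4, an assembly factor for the flavoprotein subunit of succinate dehydrogenase, had 15.1 and 15.8 FPKM, against 11.9 and 11.4 FPKM (0.38, SE 0.08, adjusted p = 0.194). SLC25A13, an aspartate-glutamate carrier of the malate-aspartate shuttle, had 7.62 and 7.51 FPKM, against 9.75 and 9.99 FPKM (-0.34, SE 0.08, adjusted p = 0.208). SLC25A10, the dicarboxylate carrier that exchanges malate and succinate for phosphate, had 30.95 and 36.1 FPKM, against 44.6 and 40.6 FPKM in the EV controls; it was named after its values were seen. PCK1, ADHFE1 and NNT did not reach the minimum level, and NNT was listed at 0 in all 4 libraries.

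**Figure D5:**
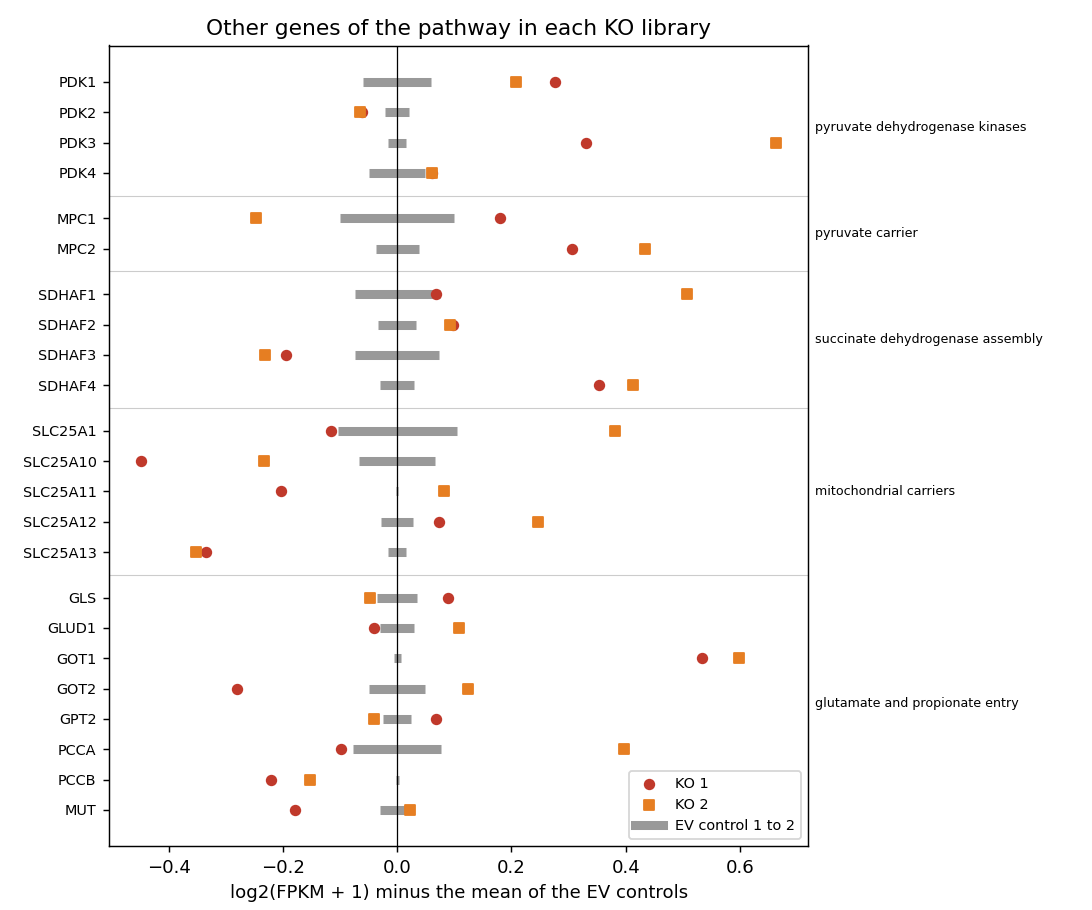
Difference of KO 1 (circles) and KO 2 (squares) from the mean of the EV controls on the log2(FPKM + 1) scale for 23 other genes of the pathway in 5 groups, with grey bars spanning the EV control replicates. GOT1, SDHAF4, MPC2 and PDK3 stand to the right in both KO libraries and SLC25A13 to the left, none of them past the adjusted threshold.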

How the data were processed

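Poly(A)-selected stranded libraries were made from total RNA, per the labels' protocols. The authors deposited 1 FPKM value per gene and library. Per the submitters' processing notes, they used Cuffnorm 2.2.1, TopHat2 2.0.13, SAMtools 0.1.19 and Bowtie2 2.2.3 with build hg19. The headers name no unit, and FPKM was taken from the use of Cuffnorm. Annotation, strand setting and scaling: not given in the sources used here. Read counts were not used; depths were estimated from single-transcript genes (GENCODE 29) with low values, between preset bounds, and are rough.

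Values were transformed to log2(FPKM + 1). The 12701 genes with at least 1 FPKM in at least 2 of 4 libraries were fitted with limma 3.58.1 (trend, group as the sole term, R 4.3.3), and p-values were adjusted over all of them by the Benjamini-Hochberg method. Log2 differences are KO minus EV control. The prior degrees of freedom were 2.82, added to 2 residual ones. Members and lists were chosen with earlier results of these data known, and an item of the pathway is not reported here. Fitted values are given for the 10 members and 5 other pathway genes with the smallest p-values, and for the kinases and the carrier. Chromosome order came from RefSeq (GRCh38.p14; 99.6% of genes at 5 FPKM or more matched, small RNA genes left out) and was used for order alone.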

Additional observations from a re-analysis of the deposited data

How the results depend on the processing

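No member passed in the settings tried except those without a KO library: pseudocounts, filters, scalings, no trend, robust trend, replicate block, either EV control left out, and the added length and GC correction all gave 0 higher and 0 lower. Leaving out a library in turn gave 0 to 5 members higher and 0 to 2 lower, and 0 to 7 other pathway genes higher and 0 to 2 lower. The counts at an unadjusted p under 0.05 ranged from 0 to 7 higher and 0 to 10 lower, and fell to 0 in both directions without EV control replicate 1 or 2. That count of lower members was 1 in limma without trend and 1 with the length and GC correction. With the replicate block it was 1, and 3 members were higher. Beyond the shares given above, the share of all tested genes is not given for these counts. They are therefore not set against a background. The same-numbered libraries did not deviate together (correlation -0.005). No member and no other listed pathway gene had an adjusted p under 0.05 in limma-trend with the block, or without it.

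For single KO libraries, median-of-ratios scaling gave 2 higher and 0 lower members past 0.3 in KO 1, 3 higher in KO 2, and 8 members with both KO libraries above both controls. Quantile normalization gave medians of -0.0203 in KO 1 and -0.0563 in KO 2, 2 higher members in KO 1, and 1 higher and 4 lower in KO 2. The length and GC correction gave 3 higher in KO 2. With EV control replicate 2 left out, KO 1 had 2 members higher, and the range over both controls was 1 to 2. Leaving out libraries in turn, MPC1 ranged from -0.2462 to 0.1808, above 0 without KO 2 (0.1808) and without EV control 1 (0.07). The cause of these shifts was not tested, and the share of all tested genes past 0.3 is not given for these settings. Shares within a library do not depend on scaling by a constant. With 2 libraries per group, differences of the size seen in most members could not be separated from the spread between KO libraries.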
